A study of Mus musculus with 15 samples.

Results

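Axon guidance genes, the ephrins, semaphorins, netrins and Slit proteins together with their receptors, were examined in 3T3-L1 cells, a mouse fibroblast line that is committed to the fat lineage and forms adipocytes when treated with hormones. The members were chosen by name: every gene with a mouse symbol of the Epha, Ephb, Efna, Efnb, Sema3 to Sema7, Plxna, Plxnb, Plxnc, Plxnd, Slit or Robo families, plus Nrp1, Nrp2, Ntn1, Ntn3, Ntn4, Unc5a, Unc5b, Unc5c, Unc5d, Dcc and Neo1. This gave 69 genes of the 26301 in the count files, and the rule itself uses no measured value.

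The 15 poly(A) RNA-seq libraries came from 5 stable lines of 3T3-L1 cells, with 3 replicates each, all taken 2 days after adipocyte differentiation was induced with insulin, dexamethasone and IBMX. Next to control (sh-Empty) cells stood JMJD1A-KD (sh-Jmjd1a) cells, which carry a retroviral short hairpin RNA directed against Jmjd1a, the gene of a histone H3K9 demethylase whose current symbol is Kdm3a. In the rescue experiment the JMJD1A-KD cells carried a further retrovirus for LacZ, for wild-type JMJD1A(WT), or for JMJD1A(H1122A), whose iron-binding site is defective; all 3 of these lines therefore also carry the hairpin. Each line is a drug-selected infected population, and whether its replicates were separate cultures was not given in the sources used here, so p-values measure only the spread between these libraries.

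In the nervous system and in vessels these families steer growing processes. Ephrins are bound to the membrane and signal through Eph receptor tyrosine kinases on the neighbouring cell, and the ephrin-bearing cell also receives a signal. Semaphorins act through plexins, with neuropilins as co-receptors for most secreted class 3 members, netrins act through DCC, neogenin and UNC5 receptors, and Slits act through Robo receptors; all of these feed into the actin cytoskeleton and cell adhesion, and several members are also expressed in mesenchymal and fat cells.

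Total counts ranged from 11437058 to 25523148, and the deepest library was JMJD1A(WT) replicate 3. Values are normalized read counts in CPM (counts scaled to library size), with TMM factors computed within the knockdown set of 6 libraries and within the rescue set of 9 libraries, so levels are compared within a set only. The targeted gene Kdm3a stood at 171, 174 and 185 CPM in control cells and at 129, 128 and 138 CPM in JMJD1A-KD cells, an incomplete reduction with no overlap between the groups. It was at 122, 116 and 118 CPM with LacZ, 1768, 1639 and 1662 CPM with JMJD1A(WT) and 2288, 2199 and 2103 CPM with JMJD1A(H1122A), so both introduced forms stood far above LacZ and the mutant exceeded the wild type; the counts do not separate the introduced from the endogenous transcript. Adipocyte markers moved with the groups: the summed level of 7 of them was 5021 to 5124 CPM in control cells, 2619 to 2760 CPM in JMJD1A-KD cells, 3296 to 3375 CPM with LacZ, 3727 to 4070 CPM with JMJD1A(WT) and 2559 to 2666 CPM with JMJD1A(H1122A). All 7 were called lower on knockdown, higher in JMJD1A(WT) than in LacZ cells, and lower in the mutant than in the wild-type line. The summed level of 7 preadipocyte and fibroblast markers ran from 4876 to 5020 CPM in control cells and from 6817 to 7294 CPM in JMJD1A-KD cells, and in the rescue set from 7622 to 7721 CPM with LacZ, 7535 to 7704 CPM with JMJD1A(WT) and 7798 to 8149 CPM with JMJD1A(H1122A). On knockdown 4 of these 7 were called higher, among them Col1a1, which went from 1168 ± 35.6 to 3122 ± 59.8 CPM and carried most of the sum's change; 2 were called lower, Dlk1 (log2FC -0.76, adjusted p = 6.27e-15) and Ly6a (log2FC -0.41, adjusted p = 0.00822), and Pdgfra was not called. With JMJD1A(WT) against LacZ, edgeR called 3 of these 7 higher: Ly6a (log2FC 1.24, adjusted p = 8.37e-13), Dlk1 (log2FC 0.43, adjusted p = 6.89e-13) and Pdgfrb (log2FC 0.18, adjusted p = 0.0214). Vim was lower (log2FC -0.14, adjusted p = 0.000654), and Col1a1 was not called. With the mutant against the wild type, 2 were lower, Ly6a (log2FC -1.54) and Dlk1 (log2FC -0.96), and 3 were higher. The part of these shifts in the results for the guidance genes was not tested, and in such bulk RNA fewer differentiated cells and less RNA of a gene per cell cannot be told apart. Markers of other cell types were low, with sums of at most 1.06 CPM for 5 endothelial genes and 0.778 CPM for 4 epithelial genes. The sums were at most 3.81 CPM for 5 neuronal genes, among them Rbfox3 with no count, and 4.05 CPM for 5 macrophage genes. The neuronal marker Syp was called higher on knockdown, from 0.768 ± 0.117 to 1.72 ± 0.651 CPM (log2FC 1.17 ± 0.415, edgeR adjusted p = 0.0217). Snap25 and Cd68 were also tested there and not called.

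Of the 69 members, 44 had enough counts to be tested in the knockdown set and 43 of these in the rescue set, the exception being Sema4a. The other 25 fell below the filter in both sets and never exceeded 21 counts in a library, the highest being Sema3b with 0 to 21 counts and Efna2 with 3 to 17. Among them were all 4 Robo genes, with at most 3 counts, Sema3e, the ligand of plexin D1, with at most 2 counts, and Plxnc1, the receptor of semaphorin 7A, with at most 1 count. No read was counted in any library for 9 members, Epha5, Epha10, Ephb1, Robo1, Robo4, Sema4f, Dcc, Unc5a and Unc5d, which allows up to 3 counts, or 0.118 to 0.262 CPM depending on the library, from counting error alone. Annotated exons of other genes overlap those of Epha1, Ephb4, Efna3, Efna4, Ntn1, Ntn3, Nrp1, Plxna1, Plxna4 and Plxnb1, whose counts are therefore less certain, and whether the counting used strand was not given in the sources used here.

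JMJD1A knockdown was accompanied by changes in most of the guidance genes tested, and more of them rose than fell. With edgeR (quasi-likelihood test, p adjusted by Benjamini-Hochberg over all genes), 20 of 44 members were higher in JMJD1A-KD than in control cells, where 22.3% of all 12272 genes tested were higher, and 12 of 44 were lower, where 23.9% of all genes were lower. These are 45.5% and 27.3% of the members, so the share that fell was near that of all genes. The median log2 fold change (log2FC) was 0.28 over the members and -0.0032 over all genes tested. Among called members, 6 had a log2FC of 1 or more upward, against 3.07% of all genes, and 2 had one of that size downward, against 2.26%. Values of the groups did not overlap for 33 of 44 members, and for 53% of all genes. One of the members that were lower, Sema4a, reached the filter's level in the control libraries alone, the group where it is high; with at least 10 counts required in every library, 11 were lower.

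For expression of JMJD1A(WT) in place of LacZ, 6 of 43 members were higher, against 4.98% of the 12557 genes tested, and 5 were lower, against 4.52%, with groups that did not overlap for 19 members and for 22.9% of all genes. With JMJD1A(H1122A) in place of JMJD1A(WT), 15 members were higher, against 12.1% of all genes, and 10 were lower, against 11.7%; groups did not overlap for 29 members and for 37.1% of all genes. Between JMJD1A(H1122A) and LacZ, 5 members were higher, against 4.78%, and 3 were lower, against 4.46%; groups did not overlap for 21 members and for 25.1% of all genes. Efna3 reached the filter's level in all JMJD1A(WT) libraries and 1 of the others, and Epha7 in all LacZ libraries, 2 of JMJD1A(WT) and none of the mutant, so their calls arise from members kept through the groups where they are high. With at least 10 counts required in every library, members higher with JMJD1A(WT) than with LacZ went from 6 to 5, those lower with the mutant than with JMJD1A(WT) from 10 to 9 and those lower with the mutant than with LacZ from 3 to 2. The 3 rescue comparisons share libraries pairwise and are therefore given side by side.

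**Figure D1:**
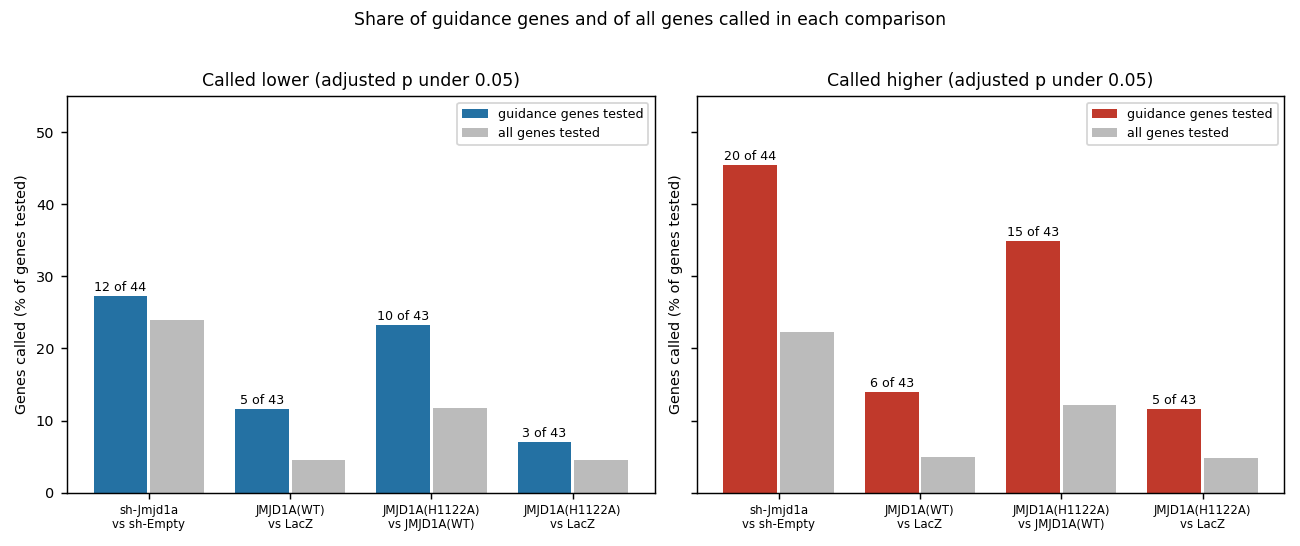
Share of tested guidance genes (coloured bars, with counts) and of all tested genes (grey bars) called lower (left) or higher (right) at an adjusted p under 0.05 in each of the 4 comparisons; the vertical axis is the percentage of genes tested. Members called higher on knockdown, 20 of 44, made up 45.5% against 22.3% of all genes, while the share called lower, 27.3%, lay close to the 23.9% of all genes.

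A small group moved in opposite directions in the knockdown and the rescue, which share no library. Sema3g, Sema3f and Slit2, all secreted ligands, fell in JMJD1A-KD cells and rose from LacZ to JMJD1A(WT) cells; they make up 25% of the 12 members lower on knockdown and 50% of the 6 higher with JMJD1A(WT), where over all genes tested in both sets the shares were 11.5% and 56.3%. Sema5a, a transmembrane semaphorin, and the receptor genes Ephb3 and Unc5c were higher in JMJD1A-KD cells and lower with JMJD1A(WT), which is 15% of the 20 higher on knockdown and 60% of the 5 lower with JMJD1A(WT), where the shares over all genes were 10.8% and 52.4%. The shares of the members called with JMJD1A(WT) were thus near those of all genes. Epha2 and Sema7a were higher in both comparisons. They make up 10% of the 20 higher on knockdown and 33.3% of the 6 higher with JMJD1A(WT), where the shares over all genes were 4.16% and 19.1%. In the main fits no member was lower in both, where over all genes 3.37% of those lower on knockdown and 17.3% of those lower with JMJD1A(WT) were. Plxnd1, lower on knockdown, was also called lower with JMJD1A(WT) under some other settings. These were a joint fit of all 15 libraries, no low count filter and a block for the replicate number.

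Promoter sequences of the genes that moved in opposite directions are shown for the 5 of 6 that had an entry in the RefSeq table (GRCm38.p6). Sema3f had none. The study examined H3K9 methylation around transcription start sites, but whether JMJD1A acts at these promoters was not tested here. Each sequence runs 5′ to 3′ from 250 bases before to 50 bases after the start of the transcript on the plus strand, and was placed by an exact and unique match on NCBIM37 (mm9): Sema3g at chr14:32030809-32031108, Slit2 at chr5:48374144-48374443, Sema5a at chr15:32174318-32174617, Ephb3 at chr16:21204618-21204917 and Unc5c at chr3:141128278-141128577. Capitals mark 4 short motifs on either strand. They are the GC box that Sp-family factors bind, spelled GGGCGG, whose copies may overlap, the CCAAT box of many promoters, the TATA box that positions the transcription start, searched as TATAAA, and the core of the cAMP response element, searched as TGACG.
Sema3g: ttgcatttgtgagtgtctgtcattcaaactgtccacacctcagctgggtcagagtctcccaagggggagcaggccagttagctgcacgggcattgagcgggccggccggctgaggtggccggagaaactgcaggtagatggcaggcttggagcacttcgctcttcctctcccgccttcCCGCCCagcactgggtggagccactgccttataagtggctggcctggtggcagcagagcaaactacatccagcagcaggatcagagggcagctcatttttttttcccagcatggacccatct
Slit2: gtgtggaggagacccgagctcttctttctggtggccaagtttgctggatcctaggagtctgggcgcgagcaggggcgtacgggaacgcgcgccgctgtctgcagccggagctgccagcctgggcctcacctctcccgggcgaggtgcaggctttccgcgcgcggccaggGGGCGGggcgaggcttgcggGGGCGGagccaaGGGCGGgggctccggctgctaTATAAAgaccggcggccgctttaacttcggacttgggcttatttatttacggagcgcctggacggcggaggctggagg
Sema5a: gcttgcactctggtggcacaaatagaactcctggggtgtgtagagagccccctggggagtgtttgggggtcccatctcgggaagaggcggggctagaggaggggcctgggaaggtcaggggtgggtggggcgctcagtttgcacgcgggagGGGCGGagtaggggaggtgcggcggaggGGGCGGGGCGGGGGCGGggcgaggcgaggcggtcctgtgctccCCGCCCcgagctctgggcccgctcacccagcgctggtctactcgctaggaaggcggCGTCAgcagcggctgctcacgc
Ephb3: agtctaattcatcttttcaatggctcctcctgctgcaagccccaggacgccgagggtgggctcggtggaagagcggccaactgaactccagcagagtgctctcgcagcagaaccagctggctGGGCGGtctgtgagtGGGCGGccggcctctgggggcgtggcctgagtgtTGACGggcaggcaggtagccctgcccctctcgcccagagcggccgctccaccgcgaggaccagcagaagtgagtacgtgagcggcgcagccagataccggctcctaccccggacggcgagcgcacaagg
Unc5c: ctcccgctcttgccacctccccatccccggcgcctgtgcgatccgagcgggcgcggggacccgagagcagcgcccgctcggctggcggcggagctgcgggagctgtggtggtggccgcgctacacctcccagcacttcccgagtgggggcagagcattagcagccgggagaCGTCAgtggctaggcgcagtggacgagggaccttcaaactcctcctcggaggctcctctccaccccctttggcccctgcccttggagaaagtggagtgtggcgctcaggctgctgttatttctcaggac

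Among the ligand genes that fell on knockdown, Sema3g held 1 GC box and Slit2 held 3 together with 1 TATA box. Among the genes that rose, Sema5a held 5 GC boxes and 1 cAMP response core, Ephb3 held 2 and 1, and Unc5c held 1 cAMP response core and no GC box. None of the 5 held a CCAAT box, which says only that these letters are not in this window. Over all 32851 promoter entries the GC box was found in 35.7%, the CCAAT box in 37.4%, the TATA box in 13.6% and the cAMP response core in 20.8%. An entry was found for 59 of the 69 members, and in their 75 promoters the shares were 72.0%, 29.3%, 2.67% and 13.3%. In the 49 promoters of members tested on knockdown, the shares were 83.7%, 24.5%, 4.08% and 16.3%. Most of the members' promoters thus held a GC box and few held a TATA box.

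Levels between genes can be set side by side only per length, here as CPM per kb of annotated exon. In control cells the highest level by this measure was that of Plxnd1, a plexin known from vessel guidance, at 99.2 ± 2.08 CPM per kb (SD, n = 3), and it fell to 55.99 ± 0.378 in JMJD1A-KD cells. Next came Plxnb2 at 32.1 ± 0.550, Ephb4, the receptor of ephrin-B2, at 29.5 ± 1.16, Nrp1 at 29.2 ± 0.697, Plxna1 at 22.5 ± 0.445 and Ntn1 at 20.2 ± 0.774 CPM per kb. Ephb4 and Nrp1 did not differ beyond their spread in this order, whereas Plxnd1 stood apart from all others. Among the ligands that led their classes, Efnb2 was at 12.1 ± 0.971, Slit3 at 9.21 ± 0.599, Sema4c at 9.30 ± 0.416 and Sema3a at 4.37 ± 0.295 CPM per kb. The order depends on the annotated exon length, whose error the SD does not cover. Slit3 and Slit2 were at 55.9 and 54.3 CPM in control cells, with 6067 and 15091 bases of exon. Sema4c and Sema6d were at 42.7 and 75.0 CPM, with 4590 and 10559 bases.

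**Figure D2:**
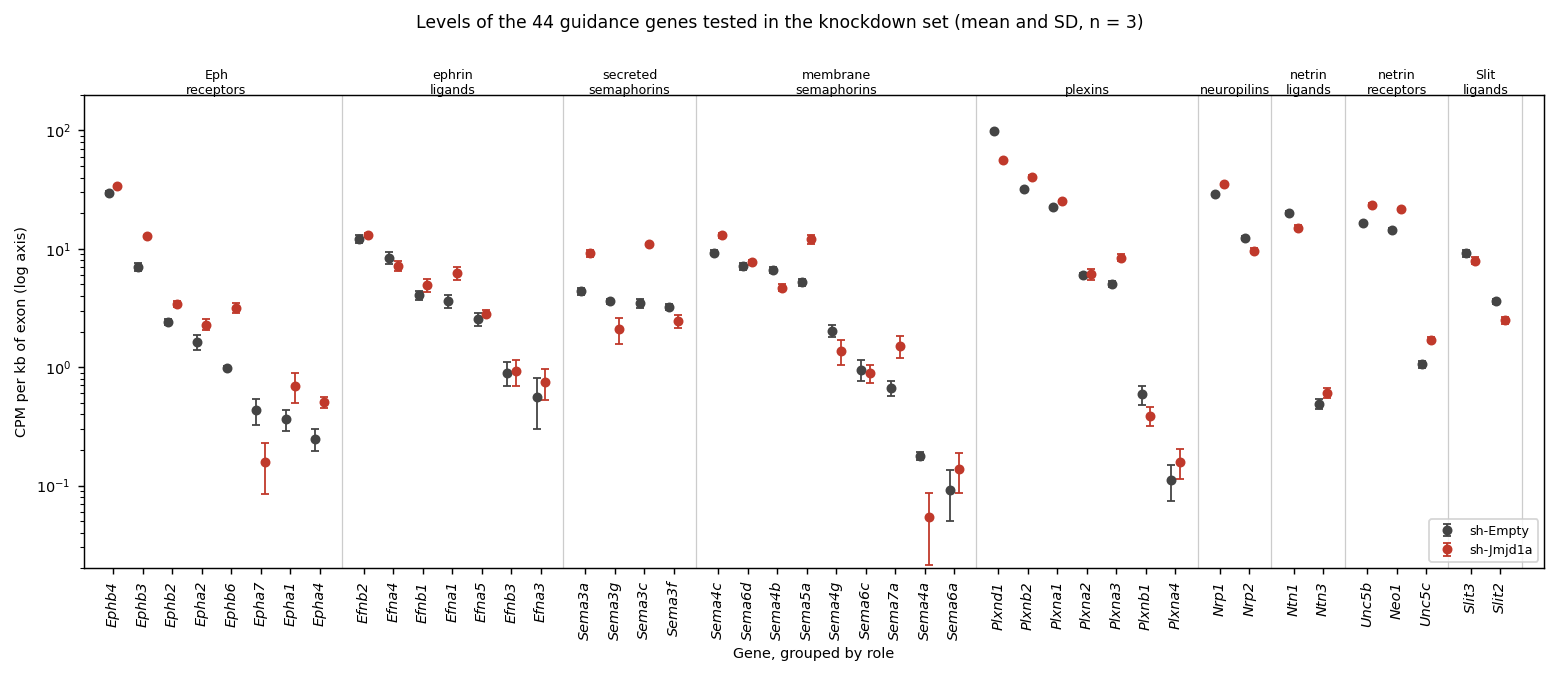
Levels of the 44 tested guidance genes in control (sh-Empty, grey) and JMJD1A-KD (sh-Jmjd1a, red) cells in CPM per kb of exon on a log axis, as mean and SD of 3 libraries, grouped by role. Plxnd1, at 99.2 CPM per kb in control cells, lies above every other member, and all 8 Eph receptors except Epha7 lie higher in the JMJD1A-KD cells.

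Among Eph receptors, 7 of the 8 tested were higher in JMJD1A-KD cells and 1, Epha7, was lower, with no overlap between the groups for any of the 8. Over all genes tested 22.3% were higher, 23.9% were lower and 53% did not overlap, which is also the background for the classes that follow; each class holds 2 to 9 tested members, and no class was tested against it. Ephb6, whose kinase domain lacks activity, showed the largest rise of the class, from 3.79, 3.79 and 3.63 CPM in control cells to 13.1, 12.1 and 10.8 CPM in JMJD1A-KD cells (log2FC 1.68 ± 0.166, adjusted p = 1.93e-09). Its level did not differ detectably between JMJD1A(WT) at 12.9, 14.5 and 16.1 CPM and LacZ at 17.9, 14.4 and 16.8 CPM (log2FC -0.15 ± 0.112, adjusted p = 0.501). With JMJD1A(H1122A) it was at 22.8, 21.3 and 25.2 CPM, above all other rescue libraries, with log2FC of 0.64 (adjusted p = 8.4e-06) against JMJD1A(WT) and 0.49 (adjusted p = 0.00196) against LacZ. The mutant line thus had the highest Ephb6 values of the rescue set, and the LacZ and JMJD1A(WT) libraries overlapped.

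Ephb3 (chr16:21204828-21223378, plus strand; Entrez Gene 13845), a B-class Eph receptor, was at 46.3, 39.9 and 46.1 CPM in control cells and at 83.3, 79.9 and 80.7 CPM in JMJD1A-KD cells (log2FC 0.88 ± 0.0655, adjusted p = 5.72e-12). It was at 86.6, 85.6 and 83.9 CPM with LacZ, at 75.3, 72.5 and 77.1 CPM with JMJD1A(WT) and at 103, 97.7 and 102 CPM with JMJD1A(H1122A). None of these 3 groups overlapped: JMJD1A(WT) lay lowest, with a log2FC of -0.18 (adjusted p = 0.0181) against LacZ, and the mutant highest, with a log2FC of 0.43 (adjusted p = 1.42e-08) against JMJD1A(WT) and 0.24 (adjusted p = 0.00145) against LacZ. The fall with JMJD1A(WT) lost its call without LacZ replicate 1 or 2 or JMJD1A(WT) replicate 2, with an adjusted p of up to 0.0691.

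Epha4, an A-class receptor that also binds B-class ephrins, rose from 1.94, 1.47 and 1.29 CPM to 3.49, 2.82 and 3.26 CPM on knockdown (log2FC 1.05 ± 0.285, adjusted p = 0.00339). In the rescue set it was at 2.47, 3.47 and 2.69 CPM with LacZ, 2.50, 3.20 and 1.87 CPM with JMJD1A(WT) and 4.07, 3.65 and 4.54 CPM with JMJD1A(H1122A). The mutant libraries lay above those of JMJD1A(WT) (log2FC 0.78 ± 0.244, adjusted p = 0.0151), a call that was lost without JMJD1A(H1122A) replicate 3 or JMJD1A(WT) replicate 3, with an adjusted p of up to 0.196. Epha7 ran the other way on knockdown, from 3.08, 5.09 and 4.66 CPM to 2.36, 1.05 and 1.24 CPM (log2FC -1.50 ± 0.296, adjusted p = 0.000127). It was at 1.80, 1.35 and 1.34 CPM with LacZ, 0.808, 0.469 and 0.972 CPM with JMJD1A(WT) and 0.313, 0.510 and 0.685 CPM with JMJD1A(H1122A), so the LacZ line was the highest of the rescue set and the mutant was lower than LacZ (log2FC -1.58 ± 0.464, adjusted p = 0.023). Without LacZ replicate 1 or JMJD1A(H1122A) replicate 1 or 2 that call was lost, with an adjusted p of up to 0.14.

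The other Eph receptors were also higher on knockdown. Ephb4, the most abundant of the class per length, was at 142, 131 and 137 CPM in control and 162, 155 and 157 CPM in JMJD1A-KD cells (log2FC 0.21 ± 0.0471, adjusted p = 0.000566). It was at 159.7, 145 and 154 CPM with LacZ, 150.2, 138 and 156 CPM with JMJD1A(WT) and 165, 158 and 169.8 CPM with JMJD1A(H1122A); the mutant exceeded the wild type by a log2FC of 0.14 (adjusted p = 0.0278), which was lost without JMJD1A(H1122A) replicate 1 or 3 or JMJD1A(WT) replicate 1 or 2, with an adjusted p of up to 0.173. Ephb2 was also higher on knockdown (log2FC 0.51 ± 0.0778, adjusted p = 3.26e-06) and was called in no rescue comparison. Epha1, which overlaps an exon of Zyx, rose from 1.06, 1.47 and 1.04 CPM to 1.57, 2.82 and 2.41 CPM on knockdown (log2FC 0.96 ± 0.342, adjusted p = 0.0226), a call lost without control replicate 1 or 3 or JMJD1A-KD replicate 2, with an adjusted p of up to 0.113, and with DESeq2 (adjusted p = 0.0529). Epha2 rose on knockdown from 8.81, 6.46 and 7.64 CPM to 9.42, 11.4 and 11.3 CPM and was higher again with JMJD1A(WT) at 15.4, 11.6 and 13.1 CPM than with LacZ at 7.997, 10.3 and 7.28 CPM, with log2FC of 0.49 (adjusted p = 0.00814) and 0.65 (adjusted p = 0.000609).

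Of their ligands, 1 of 7 ephrins tested was called on knockdown, Efna1, with a mean of 6.58 ± 0.828 CPM in control cells and 11.4 ± 1.36 CPM in JMJD1A-KD cells (log2FC 0.77 ± 0.152, adjusted p = 0.00012). Efnb1 was not called (log2FC 0.28 ± 0.118, adjusted p = 0.0537), but it was called higher with RLE size factors and in a joint fit of all 15 libraries. Whether ephrins and receptors differed in the share called was not tested. Efnb2, the ephrin of highest level and a ligand of EphB4, was at 63.3, 56.9 and 54.3 CPM in control cells and 61.8, 66.1 and 61.4 CPM in JMJD1A-KD cells, which overlapped (log2FC 0.12 ± 0.0666, adjusted p = 0.135). In the rescue set it was at 52.2, 54.9 and 61.9 CPM with LacZ, at 43.8, 45.7 and 50.5 CPM with JMJD1A(WT) and at 58.2, 55.6 and 58.3 CPM with JMJD1A(H1122A). The wild-type line was thus the lowest, by a log2FC of -0.26 (adjusted p = 0.0094) against LacZ, and the mutant lay above it, by 0.28 (adjusted p = 0.00198). Without LacZ replicate 3 or JMJD1A(WT) replicate 1 the first of these calls was lost, with an adjusted p of up to 0.153.

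Efna3, an ephrin of low level, was at 0.881, 1.12 and 2.07 CPM in control and 1.48, 1.53 and 2.41 CPM in JMJD1A-KD cells, with overlapping groups. It was at 0.800, 0.283 and 0.566 CPM with LacZ, 1.10, 2.11 and 1.28 CPM with JMJD1A(WT) and 0.705, 0.583 and 0.343 CPM with JMJD1A(H1122A). JMJD1A(WT) was above LacZ (log2FC 1.36 ± 0.436, adjusted p = 0.0371) and the mutant below JMJD1A(WT) (log2FC -1.37 ± 0.455, adjusted p = 0.0222). It was kept by the filter through the JMJD1A(WT) libraries, with 15, 27 and 33 counts against 4 to 12 in the others, and was not tested when at least 10 counts were required in every library. Both calls also depended on single libraries: the first was lost without LacZ replicate 2 or 3 or JMJD1A(WT) replicate 2 or 3 (adjusted p up to 0.197) and with DESeq2 (adjusted p = 0.078), and the second without JMJD1A(H1122A) replicate 2 or 3 or JMJD1A(WT) replicate 2 (adjusted p up to 0.108). Efna1 was higher with the mutant than with JMJD1A(WT) (log2FC 0.44 ± 0.145, adjusted p = 0.0211) and Efnb1 was lower (log2FC -0.41 ± 0.114, adjusted p = 0.00648); the first call was lost without JMJD1A(H1122A) replicate 1 or JMJD1A(WT) replicate 3 (adjusted p up to 0.252) and the second without JMJD1A(H1122A) replicate 2 (adjusted p = 0.0952). Efna4, Efna5 and Efnb3 were called in none of the 4 comparisons.

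**Figure D3:**
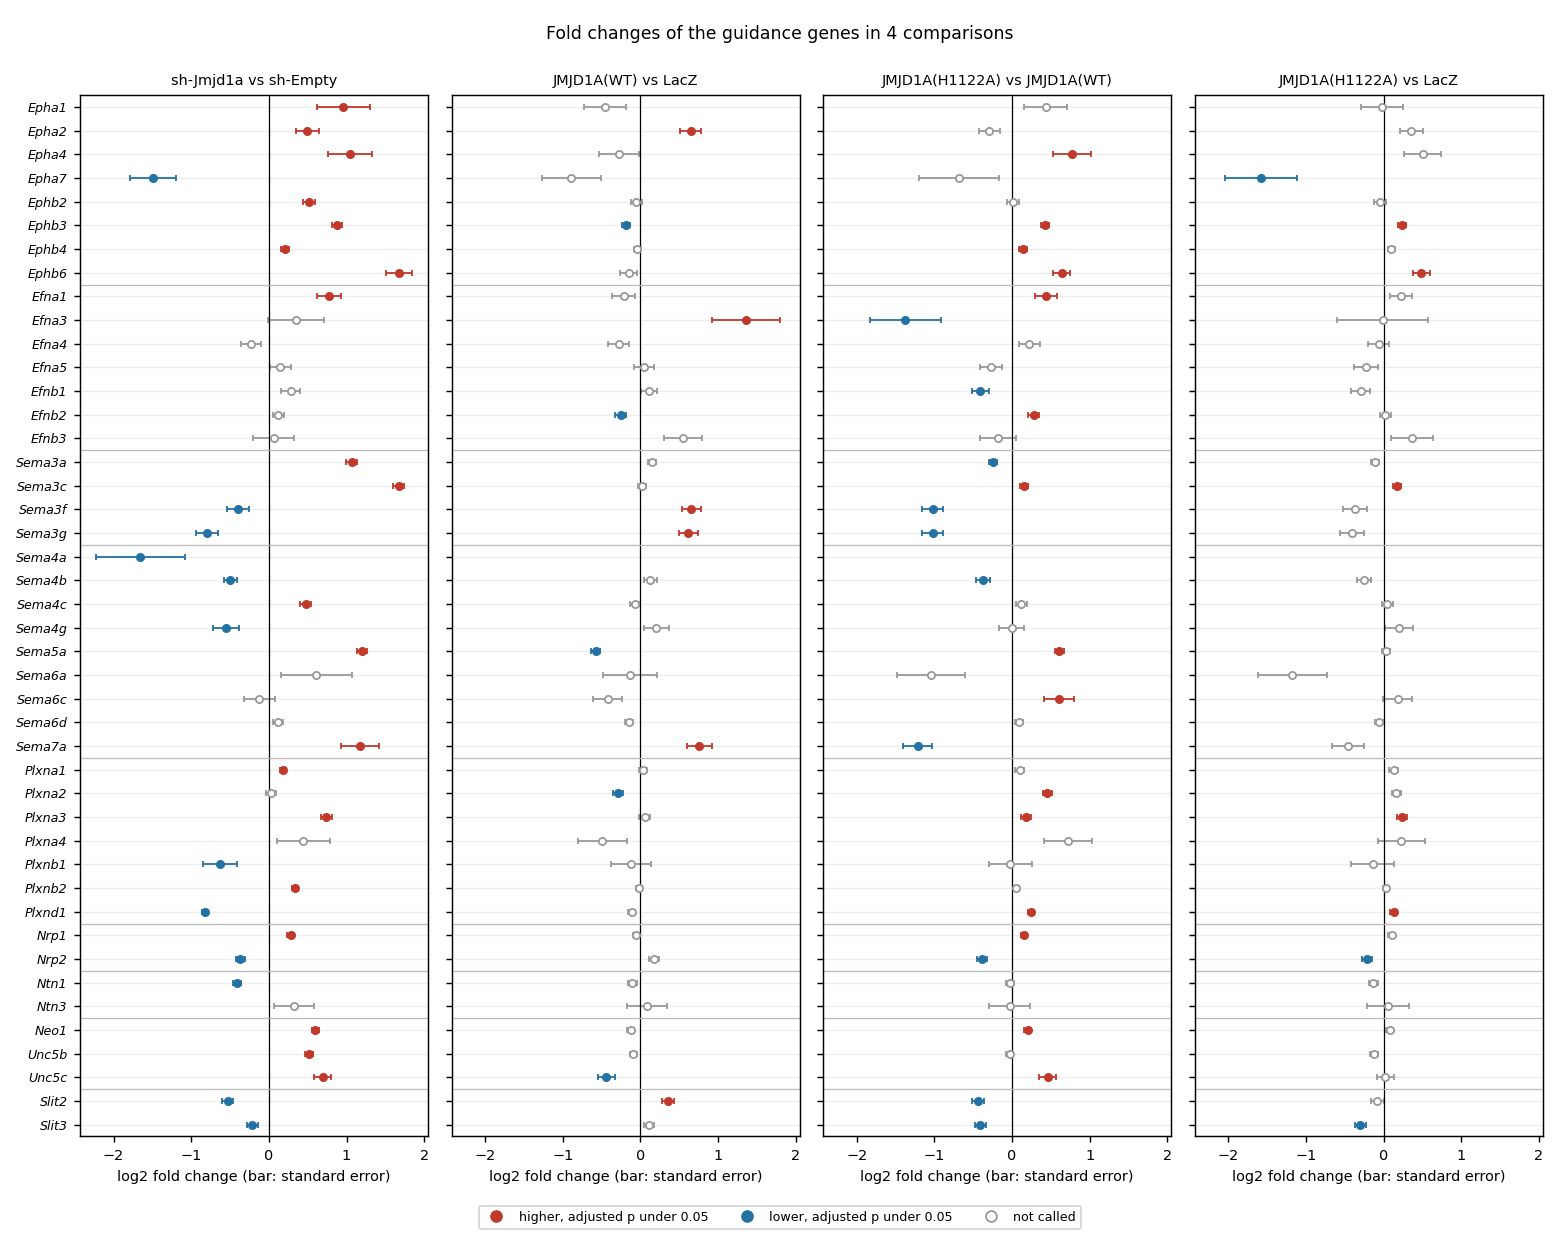
Log2 fold changes (points) with standard errors (bars) of the tested guidance genes in the 4 comparisons, ordered by role from Eph receptors at the top to Slit ligands at the bottom; filled red and blue points were called higher and lower at an adjusted p under 0.05, open grey points were not called. On knockdown 7 of 8 Eph receptors lie to the right of 0, and Sema5a, Ephb3 and Unc5c lie to the right on knockdown and to the left with JMJD1A(WT) against LacZ.

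The 4 secreted class 3 semaphorins with enough counts were divided, with Sema3c and Sema3a rising and Sema3g and Sema3f falling on knockdown, and none overlapped between the groups. Sema3c, a ligand for neuropilins and plexin D1, rose from 23.7, 27.1 and 23.3 CPM in control cells to 79.03, 77.3 and 79.3 CPM in JMJD1A-KD cells (log2FC 1.67 ± 0.0716, adjusted p = 2.9e-17). JMJD1A(WT) at 92.7, 92.6 and 98.1 CPM did not differ detectably from LacZ at 95.2, 96.1 and 89.5 CPM (log2FC 0.02 ± 0.0516, adjusted p = 0.893). With JMJD1A(H1122A) it was slightly higher, at 101, 107 and 108 CPM, with log2FC of 0.15 (adjusted p = 0.0293) against JMJD1A(WT) and 0.17 (adjusted p = 0.0338) against LacZ, and the calls did not hold when single libraries were left out. Both were lost without JMJD1A(H1122A) replicate 2 or 3, the first also without JMJD1A(WT) replicate 1 or 2 (adjusted p up to 0.109) and the second without LacZ replicate 3 (adjusted p up to 0.187).

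Sema3a, which signals through neuropilin-1 and A-type plexins, rose from 40.9, 44.7 and 46.7 CPM to 85.7, 92.9 and 99.2 CPM on knockdown (log2FC 1.07 ± 0.0671, adjusted p = 1.45e-13). It was at 101, 111 and 109.6 CPM with LacZ, 120.1, 116 and 119 CPM with JMJD1A(WT) and 98.3, 103 and 96.99 CPM with JMJD1A(H1122A). The wild-type line thus had the highest values, which did not pass the test against LacZ (log2FC 0.15 ± 0.0493, adjusted p = 0.0522), and the mutant was lower than the wild type (log2FC -0.25 ± 0.0505, adjusted p = 0.000161). Neither Sema3a nor Sema3c was thus called lower with JMJD1A(WT).

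Sema3g (chr14:32031046-32043536, plus strand; Entrez Gene 218877), a class 3 semaphorin that binds neuropilin-2, fell from 17.3, 15.5 and 16.2 CPM in control cells to 11.9, 9.44 and 7.15 CPM in JMJD1A-KD cells (log2FC -0.79 ± 0.141, adjusted p = 3.07e-05). It was at 11.9, 11.8 and 14.3 CPM with LacZ, rose to 24.6, 18.2 and 16.9 CPM with JMJD1A(WT) (log2FC 0.62 ± 0.122, adjusted p = 0.000309) and stood at 9.16, 9.55 and 9.94 CPM with JMJD1A(H1122A), below the wild type (log2FC -1.02 ± 0.134, adjusted p = 6.6e-08). All mutant libraries lay below all LacZ libraries, but this difference did not pass the test (log2FC -0.41 ± 0.151, adjusted p = 0.083). It was called when no low count filter was used.

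Sema3f (chr9:107583833-107612806, minus strand; Entrez Gene 20350), also a neuropilin-2 ligand, was at 11.3, 10.5 and 11.98 CPM in control and 7.41, 8.55 and 9.64 CPM in JMJD1A-KD cells (log2FC -0.40 ± 0.141, adjusted p = 0.0213). The fall was lost without control replicate 3 or JMJD1A-KD replicate 1 (adjusted p up to 0.109) and with DESeq2 (adjusted p = 0.0557). With JMJD1A(WT) it was at 16.8, 14.1 and 16.5 CPM against 9.66, 8.99 and 11.7 CPM with LacZ (log2FC 0.66 ± 0.124, adjusted p = 0.000138), and with JMJD1A(H1122A) at 8.22, 8.60 and 6.60 CPM (log2FC -1.02 ± 0.136, adjusted p = 7.17e-08 against the wild type). Sema3f is also on a list that the study drew from these libraries together with separate measurements of H3K9 methylation around transcription start sites. Because its RNA part rests on these libraries, the list is no independent evidence of the direction of Sema3f RNA. The same holds for the signalling gene Limk1 and the markers Pparg, Fabp4 and Dlk1, which are also on the list. The methylation data were not examined here. All mutant libraries of Sema3f lay below all LacZ libraries, but this difference did not pass the test (log2FC -0.37 ± 0.154, adjusted p = 0.144). The pair of neuropilin-2 ligands thus had the same order of groups in both sets, with the lowest values of the rescue set in the mutant. For neither gene was the mutant called lower than LacZ in the main fit.

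Of 9 membrane-bound semaphorins tested on knockdown, 3 were higher and 3 lower, against 22.3% and 23.9% of all genes, which on so few genes is near the background. Sema5a (chr15:32174568-32626096, plus strand; Entrez Gene 20356), a transmembrane semaphorin with thrombospondin repeats, rose from 61.4, 68.3 and 60.5 CPM in control cells to 148, 131 and 158 CPM in JMJD1A-KD cells (log2FC 1.20 ± 0.0639, adjusted p = 1.11e-14). With LacZ it was at 146, 121 and 127 CPM, with JMJD1A(WT) it fell to 92.1, 85.7 and 87.2 CPM (log2FC -0.58 ± 0.0558, adjusted p = 1.44e-10), and with JMJD1A(H1122A) it was at 135, 141 and 127 CPM (log2FC 0.61 ± 0.0564, adjusted p = 1.55e-11 against the wild type). The mutant and LacZ lines overlapped, with a difference of 0.03 ± 0.0548 on the log2 scale (adjusted p = 0.798). Of the members that moved oppositely in the knockdown and the rescue, Sema5a had the largest fold on knockdown.

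Sema7a, a GPI-anchored semaphorin that binds integrins and plexin C1, rose from 2.03, 2.59 and 2.01 CPM to 6.19, 4.44 and 4.35 CPM on knockdown (log2FC 1.18 ± 0.244, adjusted p = 0.000216). It was at 4.80, 4.32 and 6.15 CPM with LacZ and rose again, to 9.18, 8.36 and 8.40 CPM, with JMJD1A(WT) (log2FC 0.76 ± 0.162, adjusted p = 0.0008). The mutant stood at 3.44, 3.72 and 3.94 CPM, below every LacZ and JMJD1A(WT) library (log2FC -1.22 ± 0.181, adjusted p = 8.64e-07 against the wild type; log2FC -0.46 ± 0.211, adjusted p = 0.19 against LacZ). Sema7a was thus higher both when JMJD1A was reduced and when JMJD1A(WT) was added.

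Sema4c, a ligand of plexin B2 and the membrane semaphorin of highest level per length, was at 42.6, 40.9 and 44.7 CPM in control and 60.97, 61.6 and 55.9 CPM in JMJD1A-KD cells (log2FC 0.47 ± 0.0682, adjusted p = 1.5e-06). With LacZ it was at 56.8, 53.7 and 52.8 CPM, with JMJD1A(WT) at 53.05, 45.96 and 55.1 CPM and with JMJD1A(H1122A) at 59.6, 58.8 and 50.2 CPM, and none of these differences passed the test. Sema4a, near the limit of detection, was at 0.881, 1.03 and 0.971 CPM in control cells and at 0.0872, 0.403 and 0.389 CPM in JMJD1A-KD cells (log2FC -1.65 ± 0.575, adjusted p = 0.0193). It passed the filter in the knockdown set alone, and there through the control libraries alone, with 10, 12 and 15 counts against 1, 5 and 5 in JMJD1A-KD cells, so that a gene kept in this way had to be higher in control cells. Its call was lost without control replicate 2 or 3 or JMJD1A-KD replicate 1 (adjusted p up to 0.1). In the rescue set it was at 0, 0.566 and 0.141 CPM with LacZ, at 0.220, 0.469 and 0.428 CPM with JMJD1A(WT) and at 0.157, 0.146 and 0.0857 CPM with JMJD1A(H1122A). Sema4b fell on knockdown from 36.03, 33.9 and 37.9 to 25.03, 27.5 and 24.1 CPM (log2FC -0.50 ± 0.0841, adjusted p = 1.63e-05) and was lower with the mutant than with the wild type (log2FC -0.38 ± 0.0897, adjusted p = 0.00123). Sema4g fell from 9.90 ± 1.12 to 6.66 ± 1.55 CPM (log2FC -0.55 ± 0.168, adjusted p = 0.00843), a call that was lost without JMJD1A-KD replicate 2 (adjusted p = 0.0646). Sema6c was not called on knockdown, at 6.34, 4.31 and 6.34 CPM in control and 6.28, 5.16 and 4.43 CPM in JMJD1A-KD cells. It was at 6.73, 5.81 and 4.46 CPM with LacZ, 4.85, 3.44 and 4.32 CPM with JMJD1A(WT) and 7.05, 5.69 and 6.68 CPM with JMJD1A(H1122A), and the mutant was higher than the wild type (log2FC 0.60 ± 0.191, adjusted p = 0.0164), which was lost without JMJD1A(H1122A) replicate 1 or 3 or JMJD1A(WT) replicate 2 or 3 (adjusted p up to 0.0897). Sema6a and Sema6d were called in no comparison.

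**Figure D4:**
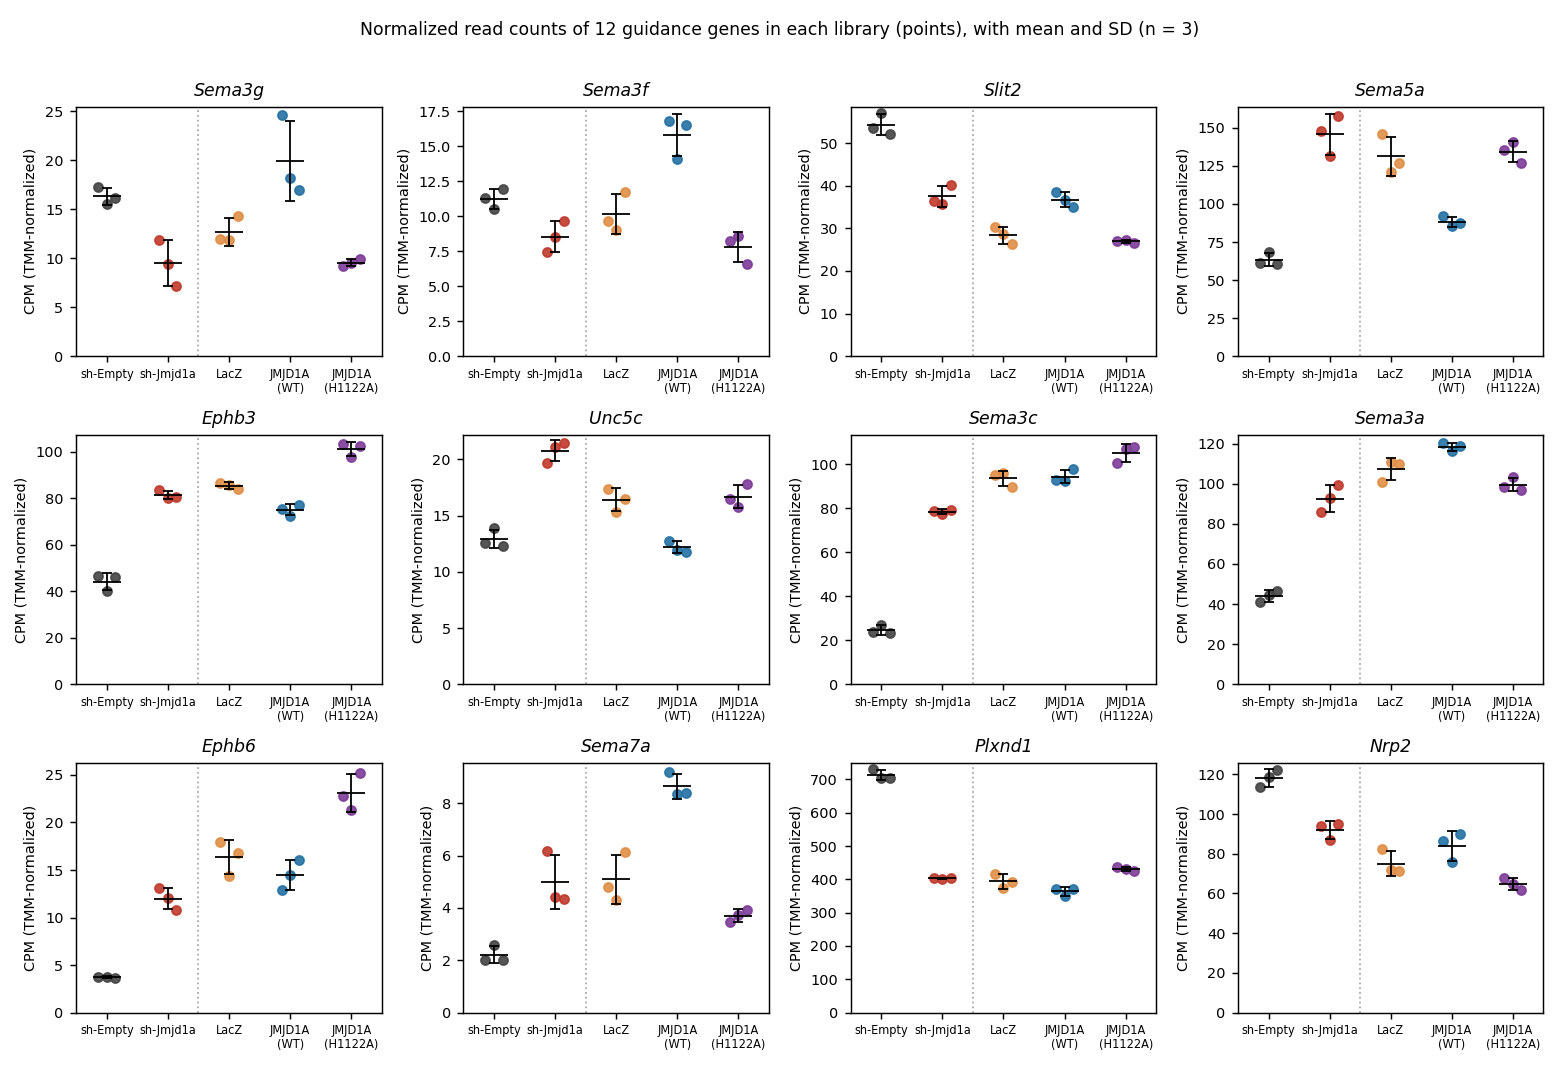
CPM of 12 guidance genes in every library (points; 3 per group) with the mean and SD (bars), on linear axes from 0; the dotted line separates the knockdown set from the rescue set, which were normalized apart. Sema3g, Sema3f and Slit2 lie below sh-Empty in sh-Jmjd1a cells and above LacZ in JMJD1A(WT) cells, Sema5a, Ephb3 and Unc5c lie the other way round, and Plxnd1 lies between 400 and 405 CPM in sh-Jmjd1a cells against 704 to 730 CPM in sh-Empty cells.

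Plexins, the semaphorin receptors, included the most abundant member. Plxnd1 fell from 730.4, 704 and 705 CPM in control cells to 404, 399.6 and 405 CPM in JMJD1A-KD cells (log2FC -0.82 ± 0.0373, adjusted p = 9.64e-17), the smallest adjusted p among the members that fell. In the rescue set it was at 416, 372 and 393 CPM with LacZ, 371, 349 and 371 CPM with JMJD1A(WT) and 436, 431 and 425 CPM with JMJD1A(H1122A), and the difference of JMJD1A(WT) from LacZ did not pass the test (log2FC -0.11 ± 0.0395, adjusted p = 0.0586). That difference was called, as lower, in a joint fit of all 15 libraries, without the low count filter and with a block for the replicate number. The mutant was higher than the wild type (log2FC 0.24 ± 0.0396, adjusted p = 5.16e-06) and than LacZ (log2FC 0.13 ± 0.0396, adjusted p = 0.0312), the latter lost without LacZ replicate 2 or 3 or JMJD1A(H1122A) replicate 1 or 2 (adjusted p up to 0.229). No rise of Plxnd1 with JMJD1A(WT) was thus detected.

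Of the other 6 plexins tested on knockdown, Plxna3, a receptor for class 3 semaphorins, was at 39.95 ± 2.30 CPM in control and 66.4 ± 4.81 CPM in JMJD1A-KD cells (log2FC 0.74 ± 0.0709, adjusted p = 1.04e-09). Plxnb2 rose from 235 ± 4.03 to 297 ± 10.5 CPM (log2FC 0.34 ± 0.0418, adjusted p = 1.22e-07) and Plxna1 from 203 ± 4.02 to 230.2 ± 5.08 CPM (log2FC 0.18 ± 0.0422, adjusted p = 0.000717). Plxnb1, a receptor of semaphorin 4D, fell from 5.28 ± 0.981 to 3.48 ± 0.614 CPM (log2FC -0.63 ± 0.217, adjusted p = 0.0191), which was lost without control replicate 3 or JMJD1A-KD replicate 2 (adjusted p up to 0.159) and with DESeq2 (adjusted p = 0.0528). Sema4d itself had at most 10 counts in any library. In all, 3 plexins were called higher and 2 lower on knockdown, the latter Plxnd1 and Plxnb1. In the rescue set Plxna3 was higher with the mutant than with JMJD1A(WT) (log2FC 0.18 ± 0.0649, adjusted p = 0.035). It was also higher than with LacZ (log2FC 0.24 ± 0.0665, adjusted p = 0.0172), and the groups overlapped in both comparisons. Each call was lost in 4 of 9 fits that omitted 1 library (adjusted p up to 0.252 and 0.159). Plxna2 was not called on knockdown (log2FC 0.03 ± 0.0645, adjusted p = 0.74) but was at 91.4, 79.4 and 91.9 CPM with LacZ, at 73.03, 68.01 and 73.3 CPM with JMJD1A(WT) and at 98.8, 106 and 89.6 CPM with JMJD1A(H1122A). The wild-type line had the lowest Plxna2 values, with no overlap, and the log2FC was -0.29 (adjusted p = 0.000654) against LacZ and 0.46 (adjusted p = 9.48e-08) for the mutant against the wild type.

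The neuropilins, co-receptors of class 3 semaphorins, moved apart. Nrp1, the Sema3a co-receptor, rose from 169, 171 and 177 CPM to 209, 213 and 207 CPM on knockdown (log2FC 0.28 ± 0.0431, adjusted p = 4.29e-06), and Nrp2, the co-receptor of Sema3f and Sema3g, fell from 113, 119 and 122 CPM to 93.9, 86.7 and 94.95 CPM (log2FC -0.37 ± 0.0535, adjusted p = 1.83e-06). In the rescue set Nrp1 was at 207, 208 and 221 CPM with LacZ, 199.9, 208 and 206 CPM with JMJD1A(WT) and 228, 228 and 227 CPM with JMJD1A(H1122A), and the mutant was higher than the wild type (log2FC 0.16 ± 0.0411, adjusted p = 0.00383). Nrp2 was at 82.2, 71.7 and 71.4 CPM with LacZ, 86.5, 75.7 and 89.8 CPM with JMJD1A(WT) and 67.8, 64.7 and 61.9 CPM with JMJD1A(H1122A), and the mutant was lower than the wild type (log2FC -0.39 ± 0.0643, adjusted p = 8.16e-06). The mutant was also lower than LacZ for Nrp2 (log2FC -0.21 ± 0.0663, adjusted p = 0.0324), a call lost without LacZ replicate 1 or JMJD1A(H1122A) replicate 2 or 3 (adjusted p up to 0.23). Neither was called between JMJD1A(WT) and LacZ, with log2FC of -0.05 (adjusted p = 0.542) and 0.17 (adjusted p = 0.0739).

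In the netrin system all 3 receptor genes tested were higher on knockdown and the main ligand gene was lower. Ntn1, the secreted netrin-1, was at 131, 127 and 122 CPM in control and 97.2, 97.4 and 89.8 CPM in JMJD1A-KD cells (log2FC -0.41 ± 0.0526, adjusted p = 1.79e-07). It was at 96.8, 93.5 and 103 CPM with LacZ, 90.1, 85.7 and 95.5 CPM with JMJD1A(WT) and 88.4, 86.03 and 93.8 CPM with JMJD1A(H1122A), with no call between them. Ntn3, at 2.40 ± 0.233 CPM in control cells, was not called in any comparison. Unc5b, a receptor that mediates repulsion by netrin-1, rose from 94.6, 97.5 and 96.6 CPM to 139, 132 and 143 CPM (log2FC 0.52 ± 0.0499, adjusted p = 1.08e-09), and it was at 131, 131 and 125 CPM with LacZ, 121, 117 and 124 CPM with JMJD1A(WT) and 121, 113 and 122 CPM with JMJD1A(H1122A), again with no call. Neo1, the gene of neogenin, which also binds repulsive guidance molecules, was at 102, 106 and 110.4 CPM in control and 158, 163 and 161 CPM in JMJD1A-KD cells (log2FC 0.60 ± 0.0482, adjusted p = 2.92e-11), and it was higher with the mutant than with the wild type (log2FC 0.20 ± 0.0442, adjusted p = 0.000428).

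Unc5c (chr3:141128528-141497888, plus strand; Entrez Gene 22253), the other UNC5 receptor tested, rose from 12.6, 13.9 and 12.3 CPM to 19.7, 21.1 and 21.4 CPM on knockdown (log2FC 0.69 ± 0.108, adjusted p = 5.01e-06). It was at 17.4, 15.4 and 16.5 CPM with LacZ, at 12.8, 11.96 and 11.8 CPM with JMJD1A(WT) (log2FC -0.44 ± 0.110, adjusted p = 0.00497) and at 16.5, 15.7 and 17.8 CPM with JMJD1A(H1122A) (log2FC 0.46 ± 0.113, adjusted p = 0.0018 against the wild type). The wild-type libraries lay below all others of the set, and the mutant and LacZ libraries overlapped, with a difference of 0.02 ± 0.110 on the log2 scale.

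Both Slit genes tested were lower on knockdown, while no Robo gene had more than 3 counts in a library. Slit2 (chr5:48374394-48697521, plus strand; Entrez Gene 20563), which encodes a secreted ligand also made by fat cells, fell from 53.6, 57.1 and 52.2 CPM in control to 36.4, 35.8 and 40.3 CPM in JMJD1A-KD cells (log2FC -0.53 ± 0.0718, adjusted p = 5.55e-07). With LacZ it was at 30.3, 28.7 and 26.3 CPM, with JMJD1A(WT) at 38.6, 36.6 and 35.1 CPM (log2FC 0.36 ± 0.0780, adjusted p = 0.00096) and with JMJD1A(H1122A) at 27.01, 27.3 and 26.5 CPM (log2FC -0.44 ± 0.0810, adjusted p = 4.02e-05 against the wild type). The wild-type libraries lay above all LacZ and mutant libraries, which differed by -0.08 ± 0.0867 on the log2 scale (adjusted p = 0.668). Slit3 was at 58.5, 51.7 and 57.4 CPM in control and 51.99, 45.4 and 47.2 CPM in JMJD1A-KD cells, groups that overlapped (log2FC -0.22 ± 0.0705, adjusted p = 0.0127); this call was lost without control replicate 1 or 3 or JMJD1A-KD replicate 2 (adjusted p up to 0.0761). It was at 58.8, 53.5 and 53.3 CPM with LacZ, 63.2, 53.5 and 61.04 CPM with JMJD1A(WT) and 48.5, 43.5 and 42.8 CPM with JMJD1A(H1122A), lower with the mutant than with the wild type (log2FC -0.41 ± 0.0701, adjusted p = 1.37e-05) and than with LacZ (log2FC -0.30 ± 0.0722, adjusted p = 0.00452). Robo2 had 0 to 3 counts in a library and Robo3 had 0 to 1, and no read was counted for Robo1 or Robo4.

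Downstream of these receptors, a list of 56 signalling genes was followed, of which 48 were tested. The list was chosen with earlier results of these data known, so its shares are descriptive only. On knockdown 23 were higher, against 22.3% of all genes, and 9 were lower, against 23.9%, with a median log2FC of 0.15. Mical1, an actin-oxidizing enzyme that binds plexins, went from 16.4 ± 1.55 to 41.2 ± 1.91 CPM (log2FC 1.32 ± 0.0900, adjusted p = 9.1e-13). Dpysl3, of the collapsin response mediator family that acts in semaphorin signalling, went from 64.7 ± 2.03 to 136 ± 5.23 CPM (log2FC 1.07 ± 0.0540, adjusted p = 1.04e-15). The kinases Pak1 and Fyn also rose, by log2FC of 0.97 (adjusted p = 8.55e-07) and 0.80 (adjusted p = 3.65e-09). The largest change of the list in either direction was a fall, that of Rnd2 from 15.3 ± 1.77 to 5.61 ± 0.863 CPM (log2FC -1.45 ± 0.150, adjusted p = 4.58e-09). Genes that fell also included Limk1 and Limk2, the kinases of cofilin, by log2FC of -0.66 (adjusted p = 7.35e-13) and -0.81 (adjusted p = 4.18e-14). The general GTPases Rhoa and Cdc42 were not called (log2FC 0.05 and -0.07), and Rac1 was lower (log2FC -0.19, adjusted p = 0.000464).

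With JMJD1A(WT) against LacZ, 12 of the 48 signalling genes were lower, against 4.52% of all genes, and 3 were higher, against 4.98%. Dpysl3 was at 107 ± 11.4 CPM against 143 ± 6.85 CPM with LacZ (log2FC -0.40, adjusted p = 1.14e-06), and Limk1 was at 148 ± 4.84 CPM against 124 ± 2.81 CPM (log2FC 0.25, adjusted p = 8.45e-05), both opposite to the knockdown. Nck2, an adaptor that links Eph receptors to actin, was not called on knockdown (log2FC -0.11, adjusted p = 0.0891) but was at 73.5 ± 3.42 CPM with JMJD1A(WT) against 112 ± 4.46 CPM with LacZ (log2FC -0.60, adjusted p = 4.76e-12). Between JMJD1A(H1122A) and JMJD1A(WT), 15 were higher and 8 lower, against 12.1% and 11.7% of all genes; Nck2 was higher (log2FC 0.71, adjusted p = 6.13e-15), as was Dpysl3 (log2FC 0.67, adjusted p = 2.34e-12), and Limk1 was lower (log2FC -0.50, adjusted p = 2.34e-11). Between the mutant and LacZ, 6 were higher and 5 lower, against 4.78% and 4.46% of all genes. Limk1 is on the study's list described with Sema3f, so that list and these values are not independent.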

How the data were processed

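Gene counts of 15 poly(A) RNA-seq libraries were used as deposited: per the labels and the study's methods, the authors used fastp for trimming, HISAT2 for alignment to mm9 and featureCounts for counting per gene. The strand setting was not given in the sources used here. Groups came from the labels. Entrez Gene numbers were paired with symbols for 24191 of 26301 rows, and positions came from GENCODE annotation on NCBIM37 for all 69 members.

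The 6 knockdown and the 9 rescue libraries were fitted apart with edgeR 4.0.16 in R 4.3.3 (filterByExpr with a minimum count of 10, TMM, robust quasi-likelihood F test). Benjamini-Hochberg adjustment ran over all genes tested, and a gene was called at an adjusted p under 0.05. Errors beside log2FC are standard errors, and those beside CPM are SD over 3 libraries. The functions were tested on simulated data. DESeq2 1.42.0 and other settings served as alternatives.

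Total counts ranged from 11437058 to 25523148; limits for a count of 0 cover counting error only. Replicates differed beyond sampling noise, so each counted as 1 sample. Members and gene lists were chosen with earlier results of these data known. Values in every library are given for members called on knockdown with a log2FC of at least 1, or called oppositely with JMJD1A(WT). The same holds for members called with JMJD1A(H1122A) with a log2FC of at least 0.5, leading their class per kb, or on the study's list. Other members are named with fewer values. Epha1, Epha2, Neo1, Nrp2, Plxna2 and Sema4b were given by library after their values were seen, all but Nrp2 for only some groups. Members below the filter are given by their counts.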

Additional observations from a re-analysis of the deposited data

How the results depend on the processing

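The counts of called members were recomputed with RLE size factors, DESeq2, no low count filter, a stricter filter (10 counts in each library), a joint fit of all 15 libraries, the older quasi-likelihood method, an adjusted p under 0.01, a block for the replicate number, and fits that each omitted 1 library. No called member reversed its direction. With an adjusted p under 0.01, members higher with JMJD1A(H1122A) than with JMJD1A(WT) went from 15 to 9, and those higher or lower than with LacZ from 5 to 2 and from 3 to 1. With the replicate block, members lower with JMJD1A(WT) than with LacZ went from 5 to 8 (Neo1, Plxnd1 and Sema6d added) and those higher from 6 to 8 (Nrp2 and Sema3a added); Plxna1 was added between the mutant and LacZ, and the block gave 20 higher and 12 lower on knockdown. Deviations of same-numbered libraries correlated from -0.109 to 0.0445 in the knockdown set and from -0.0323 to 0.133 in the rescue set, where 8 of 9 pairs were positive and 3 were above 0.1; since not every pair was above 0.1, the number was not taken to pair samples. With DESeq2, 19 members were higher and 10 lower on knockdown. With one library left out, members higher and lower on knockdown ranged from 19 to 21 and from 8 to 12. The ranges were 5 to 7 and 4 to 5 for JMJD1A(WT) against LacZ, 11 to 15 and 8 to 11 for JMJD1A(H1122A) against JMJD1A(WT), and 2 to 7 and 1 to 4 for JMJD1A(H1122A) against LacZ. In the last comparison the counts of 5 higher and 3 lower rested on few libraries, with 2 higher without LacZ replicate 3 or JMJD1A(H1122A) replicate 2, 3 higher without JMJD1A(H1122A) replicate 1, and 1 lower without LacZ replicate 1 or JMJD1A(H1122A) replicate 2. Members moving oppositely in knockdown and rescue ranged from 2 to 4 in each direction. Of the calls, 26 of 32 on knockdown, 8 of 11, 17 of 25 and 3 of 8 in the rescue comparisons, in the order given, held in every such fit. The cause of these shifts was not tested. Members under a few CPM, such as Sema4a, Efna3 and Epha7, are limited by depth.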

Other observations

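Other binding partners of these families were listed apart: 20 genes, of which 9 could be tested on knockdown, with 3 higher and 2 lower in JMJD1A-KD cells (33.3% and 22.2%, near the 22.3% and 23.9% of all genes), and 10 in the rescue set. Flrt2, a membrane protein that binds the UNC5 receptors, rose from 22.6 ± 1.39 CPM in control to 76.8 ± 4.22 CPM in JMJD1A-KD cells (mean ± SD, n = 3; log2FC 1.77 ± 0.0743, edgeR adjusted p = 1.78e-17), and its relative Flrt3 rose from 5.40 ± 0.429 to 11.6 ± 0.392 CPM (log2FC 1.09, adjusted p = 7.48e-07). In the rescue set Flrt3 stood at 12.9 ± 0.688 CPM in LacZ cells and at 9.40 ± 0.497 CPM in JMJD1A(WT) cells (log2FC -0.48, adjusted p = 0.00767), and Flrt2 stood at 82.6 ± 6.35 and 82.1 ± 3.75 CPM (log2FC -0.000731, adjusted p = 0.996). Vegfa, whose product binds neuropilins, was slightly higher on knockdown (log2FC 0.11, adjusted p = 0.0327). Rgma, a neogenin ligand, fell from 150.2 ± 5.73 to 104 ± 3.58 CPM (log2FC -0.53, adjusted p = 6.84e-10) and Met, a receptor kinase that associates with B-type plexins, from 48.4 ± 2.65 to 34.8 ± 1.99 CPM (log2FC -0.48, adjusted p = 4.44e-06). Itgb1, Rgmb, Flt1 and Draxin were not called on knockdown.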
